A study of Thlaspi arvense with 6 samples.

Results

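MYB transcription factors of the nectaries of pennycress (Thlaspi arvense), a winter annual oilseed of the Brassicaceae, were followed between secreting and pre-secretory nectaries. The members were all loci whose best Arabidopsis match carried the word "myb" in its description, apart from the matches to MYB21, MYB24 and MYB57. Of 12335 loci in the table, 46 held the word, 2 of them matched MYB21 or MYB57 and were set apart, and 44 remained. These 44 loci matched 40 different Arabidopsis genes, and 10 of them were sums of 2 or 3 contigs. Where a locus had several contigs, the description of the contig with the highest mean over the 6 samples counted, and no difference between the stages entered the choice. The description does not always mean a MYB factor. Besides R2R3, 3-repeat, 4-repeat and single-repeat factors, it took in the related GARP and trihelix families, proteins of chromatin complexes with a Myb-type (SANT) domain, and 3 loci named for a "Target of Myb" protein, which are sorting proteins of the membrane system and no MYB factors.

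Mature nectaries came from flowers at stages 14 to 15 by the Arabidopsis scheme, when nectar is secreted, and immature nectaries from flowers at stages 11 to 12, before secretion, with 3 samples of each. All plants were of the cultivar MN108 and about 40 days old, and nectaries were dissected by hand 4 to 8 h after dawn. Each sample pooled nectaries from a different set of plants, about 100 by the sample labels. The paper gives a larger pool. Values are read counts per contig that the authors upper-quartile normalized and rounded, summed here per locus and called normalized counts. They are not divided by transcript length, so levels are compared between samples and not between genes.

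MYB proteins bind DNA through imperfect repeats, each built of helices around conserved tryptophans. In plants the largest class carries the R2 and R3 repeats and acts on branches of phenylpropanoid, cuticle and glucosinolate metabolism, on cell fate in the epidermis and on anther development. Factors with 3 repeats control genes of the G2 and M phases, and small factors with 1 repeat compete with R2R3 factors for bHLH partners. No sequence of these loci is shown, since none was at hand.

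The samples held 10572166 (immature 3) to 22709136 (mature 2) normalized counts. Estimated reads ran in the opposite order, from approximately 11.7 M in mature 2 to 16.9 M in immature 3. Outside ribosomal RNA and organelles they ran from 4.32 M in mature 2 to 14.7 M in immature 3. Ribosomal RNA and organelles made up 63.0% of the normalized counts in mature 2 and 12.8% in immature 3. All 5 nectary markers were found, of which 4 were higher and 1 was lower in mature nectaries. SWEET9, the nectar sucrose transporter, stood at 127144, 145390 and 136621 normalized counts in mature samples and at 5066, 3810 and 9025 in immature samples. The lower one was MNC1 (Ta01412), with 33371, 19771 and 24558 in mature samples and 108224, 81358 and 146334 in immature samples, a log2 fold change of -2.10 (limma adjusted p = 0.00083). Of genes that mark neighbouring organs, AP3 of petals and stamens had 144, 148 and 176 in mature samples and 563, 484 and 281 in immature samples, a log2 fold change of -1.44 (limma adjusted p = 0.00134). SHP1 of the carpel was lower as well (-0.74, limma adjusted p = 0.00489), AG was higher and PI did not pass. No xylem marker of 9 was found, and 4 of the 5 tested phloem loci were lower in mature nectaries. The summed pollen markers ran from 3595 to 29537 in mature samples and from 266 to 476 in immature samples. Fewer cells of a type and less RNA per cell cannot be told apart in such pooled tissue.

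MYB loci changed in both directions. Of the 44 loci, 42 averaged 100 normalized counts or more in at least one of the stages and were tested. In mature nectaries 16 were higher and 13 were lower at an adjusted p under 0.05 (limma, Benjamini-Hochberg over all 11780 loci tested), and 13 did not pass. The called share was 69.0%, against 64.3% of all loci tested. Higher loci made up 38.1% of the MYB loci and 28.4% of all loci, and lower loci 31.0% and 35.9%. With a change of over 2-fold required as well, 12 MYB loci were higher and 9 were lower, a share of 50.0% against 36.9% of all loci, of which 13.8% were higher and 23.0% lower. The median log2 fold change was 0.18 over the MYB loci and -0.09 over all loci, and the median size of the change was 0.96 and 0.72. The 2 stages did not overlap in 29 of the 42 loci, or 69.0%, which were the same 29 that passed the test, against 70.1% of all loci. Without the 3 Target of Myb loci the counts were 15 higher, 13 lower and 11 not passed.

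**Figure D1:**
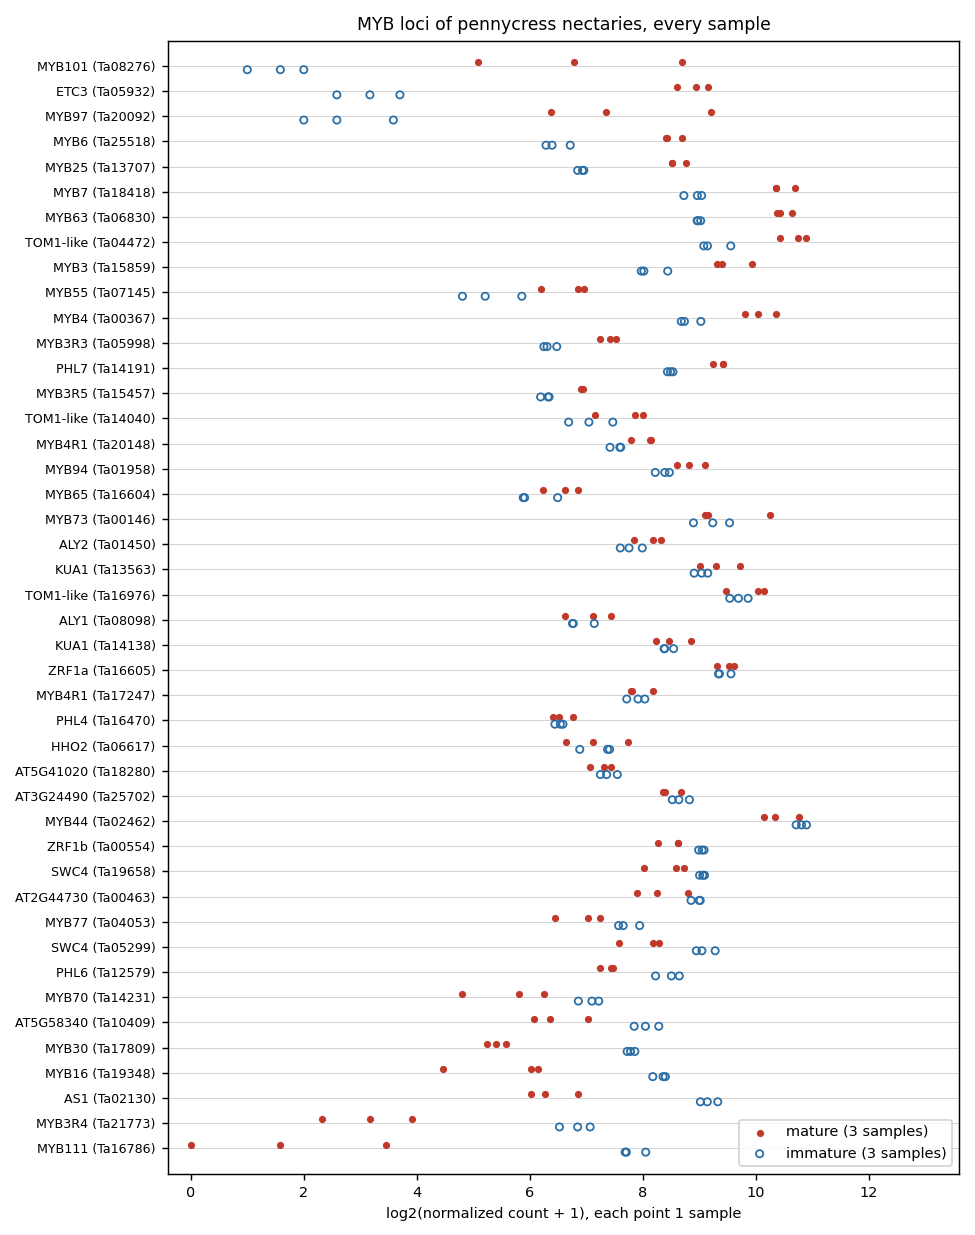
Normalized counts of the 44 loci in every sample, on a log2 scale after adding 1, with filled points for the 3 mature and open points for the 3 immature samples. The rows are ordered by the difference between the stage means, from loci higher in mature nectaries at the top, led by MYB101 and ETC3, to MYB111 at the bottom.

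The R2R3 factors, GAMYB-like ones included, moved most. Of 18 tested, 10 were higher and 6 were lower in mature nectaries, and the median size of their log2 change was 1.52. In all other classes 6 of 24 loci were higher and 7 were lower, with a median size of 0.57. The difference between these 2 sets was not tested. Single classes held 2 to 7 tested loci, and their counts are descriptions beside the 64.3% of all loci that were called.

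**Figure D2:**
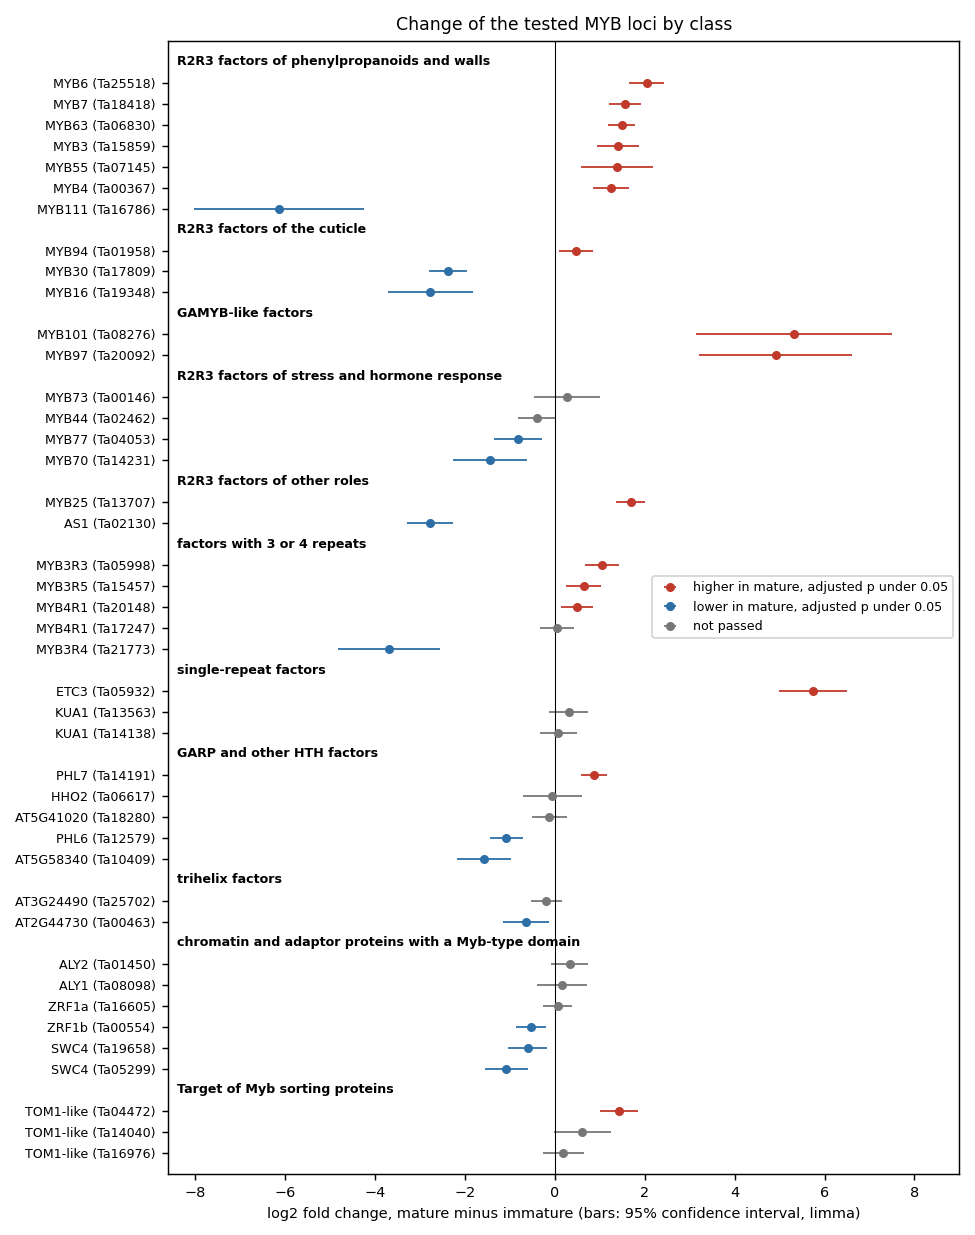
Log2 fold change of each tested locus, mature minus immature, grouped by class, with 95% confidence intervals from limma. Red marks a locus higher in mature nectaries, blue a lower one and grey one that did not pass; 6 of the 7 factors of phenylpropanoids and walls lie to the right of 0, and MYB111 lies at -6.13.

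Of the 7 R2R3 factors grouped under phenylpropanoids and cell walls, 6 were higher in mature nectaries and 1 was lower. The lower one was MYB111 (Ta16786, matched to AT5G49330), an activator of flavonol synthesis in Arabidopsis. It had 10, 2 and 0 normalized counts in mature samples, against 264, 205 and 208 in immature samples. It was nearly silent in every mature sample, with approximately 11, 1 and 0 reads, whereas the immature samples were all well above these and close to each other. Its mean was 56.4-fold lower in mature nectaries, with a log2 fold change of -6.13 (SE 0.82, limma adjusted p = 0.000318), which became -4.13 with a pseudocount of 10 in place of 1.

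MYB4, MYB7 and MYB3 repress genes of the phenylpropanoid pathway in Arabidopsis, and MYB6 is a close relative of theirs. MYB4 (Ta00367) had 1307, 1044 and 899 normalized counts in mature samples and 409, 425 and 520 in immature samples. MYB7 (Ta18418) had 1314, 1647 and 1304 in mature samples and 422, 498 and 525 in immature samples. Every mature sample of both lay above every immature one. MYB3 (Ta15859) had 973, 632 and 677 in mature samples, mature 1 highest, and 258, 346 and 250 in immature samples. MYB6 (Ta25518) had 344, 412 and 337 in mature samples and 104, 83 and 77 in immature samples. All 4 rose without overlap, by log2 fold changes of 1.25 (SE 0.18, adjusted p = 0.000429) for MYB4, 1.56 (SE 0.15, adjusted p = 7.07e-05) for MYB7, 1.40 (SE 0.21, adjusted p = 0.000533) for MYB3 and 2.04 (SE 0.17, adjusted p = 3.03e-05) for MYB6 (limma). The authors counted reads by sequence similarity, so reads of stretches that related factors share may have been placed on the wrong locus, which was not tested.

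MYB63 (Ta06830), an activator of lignin synthesis in Arabidopsis, had 1317, 1591 and 1380 normalized counts in mature samples and 501, 519 and 497 in immature samples. Its immature samples were almost equal, and all mature samples lay well above them, with a log2 fold change of 1.49 (SE 0.13, limma adjusted p = 3.8e-05). MYB55 (Ta07145) was low, with 123, 115 and 72 in mature samples and 57, 36 and 27 in immature samples. It rose by a log2 fold change of 1.38 (SE 0.35, limma adjusted p = 0.00841). Without mature 1 it fell under the filter, and with no filter its log2 fold change without that sample was 1.23 (adjusted p = 0.0237).

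Genes of the pathways these factors act on in Arabidopsis were taken from lists that were chosen with earlier results of these data known. The counts of every list stand beside the 28.4% of all loci tested that were higher and the 35.9% that were lower. Of 11 listed flavonoid genes 5 were found, of which 4 were lower and 1 was higher in mature nectaries, with a median log2 fold change of -4.62. Chalcone synthase, CHS (Ta04766), which makes the first flavonoid intermediate, had 46, 19 and 46 normalized counts in mature samples and 3122, 2484 and 5602 in immature samples. This was a log2 fold change of -6.64 (SE 0.40, limma adjusted p = 7.37e-06). The flavonoid 3'-hydroxylase, F3'H (Ta00742), had 14, 8 and 12 in mature samples and 791, 590 and 1093 in immature samples, with a log2 fold change of -6.05 (SE 0.29, limma adjusted p = 3.94e-06). MYB111 and these enzymes were thus low in the same samples, which holds for any genes lower in mature nectaries, and a link between them was not tested. The single higher locus was UGT78D2 (Ta04482), a flavonoid glucosyltransferase, with a log2 fold change of 2.37 (SE 0.20, limma adjusted p = 3.23e-05).

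Of 15 listed genes of monolignol synthesis, which makes the precursors of lignin, 12 were found. Of their 14 tested loci, 11 were higher and 2 were lower, with a median log2 fold change of 1.80. C3H1 (Ta07286), a hydroxylase of the pathway, had 3925, 5738 and 4722 normalized counts in mature samples and 774, 839 and 875 in immature samples, a log2 fold change of 2.51 (SE 0.17, limma adjusted p = 1.21e-05). PAL2 (Ta12688), an entry enzyme of the whole phenylpropanoid pathway, had 4339, 4034 and 4863 in mature samples and 662, 676 and 954 in immature samples. The log2 fold change was 2.54 (SE 0.18, limma adjusted p = 1.45e-05). C3H1 and this PAL2 locus were higher in every mature sample. A further locus matched to PAL2, Ta13994, had 106, 150 and 131 in mature samples and 105, 198 and 135 in immature samples. It overlapped between the stages and did not pass (limma adjusted p = 0.641). The 2 lower loci, F5H and PAL1, both lost their call without mature 2, without mature 3 or without immature 3. Of 13 listed factors of secondary walls and lignin, MYB63 was the 1 with a locus. The repressors MYB4, MYB7 and MYB3 and their relative MYB6 were higher in the same samples as MYB63 and most monolignol loci. A link between any of these factors and the monolignol loci was not tested.

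**Figure D3:**
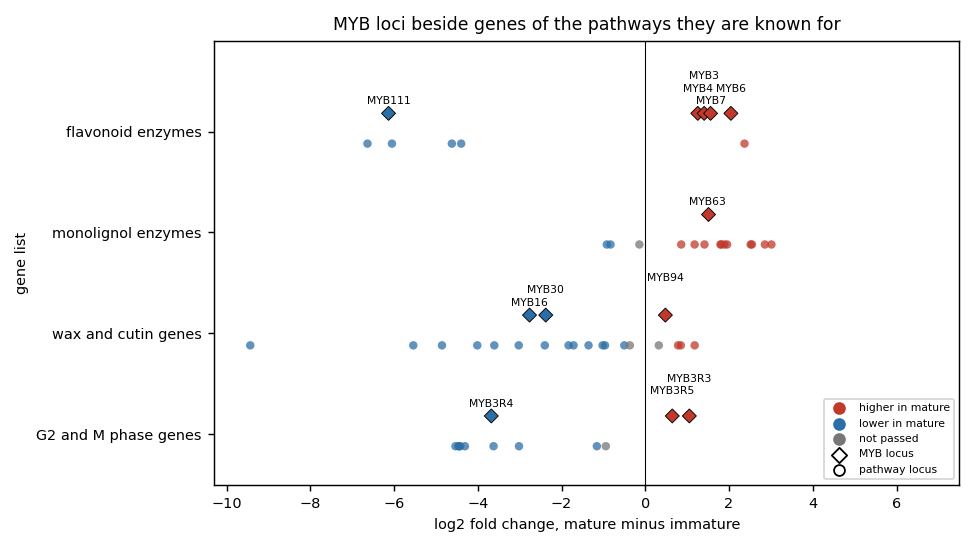
Log2 fold change, mature minus immature, of MYB loci (diamonds) and of the tested loci of 4 pathway lists (circles), coloured by their call. In the flavonoid row 4 enzymes and MYB111 lie at the left, and UGT78D2, MYB4, MYB7, MYB3 and MYB6 at the right. Most monolignol enzymes and MYB63 lie at the right. Of the 3-repeat factors MYB3R4 lies with the lower G2 and M phase genes.

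Among R2R3 factors of the cuticle, the wax and cutin layer over the epidermis, MYB16 and MYB30 were lower in mature nectaries. MYB16 (Ta19348), which promotes cuticle formation in Arabidopsis, had 64, 70 and 21 normalized counts in mature samples and 327, 288 and 336 in immature samples. All mature samples were far below the immature ones, and mature 3 was lowest. The log2 fold change was -2.77 (SE 0.41, limma adjusted p = 0.000577). MYB30 (Ta17809), known for very-long-chain fatty acid synthesis and pathogen response, had 37, 41 and 47 in mature samples and 210, 219 and 231 in immature samples. Its samples were even within each stage, and it was 5.28-fold lower in mature nectaries, a log2 fold change of -2.38 (SE 0.18, limma adjusted p = 1.97e-05).

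The locus Ta01958, annotated as MYB94, an activator of wax synthesis, had 549, 447 and 387 normalized counts in mature samples and 297, 334 and 353 in immature samples. Its log2 fold change of 0.48 (SE 0.16, limma adjusted p = 0.0310) was lost without mature 1, without immature 1 or without immature 2, and with samples rescaled to their totals without ribosomal RNA and organelles. The locus was the sum of 2 contigs with different best matches. The contig matched to MYB94 (AT3G47600) had 348, 317 and 185 in mature samples and 118, 133 and 115 in immature samples, a ratio of means of 2.32. The contig matched to MYB96 (AT5G62470), a close paralog that also activates wax synthesis, had 201, 130 and 202 in mature samples and 179, 201 and 238 in immature samples, a ratio of 0.86. Only the first contig was higher without overlap. Their log2 fold changes differed by 1.39, with an exact permutation p of 0.1 over the 3 samples a stage, two-sided, the smallest these allow, or 0.2 after adjustment over 4 such contig pairs. Whether 2 genes or 1 lie behind the locus cannot be told from the table.

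**Figure D4:**
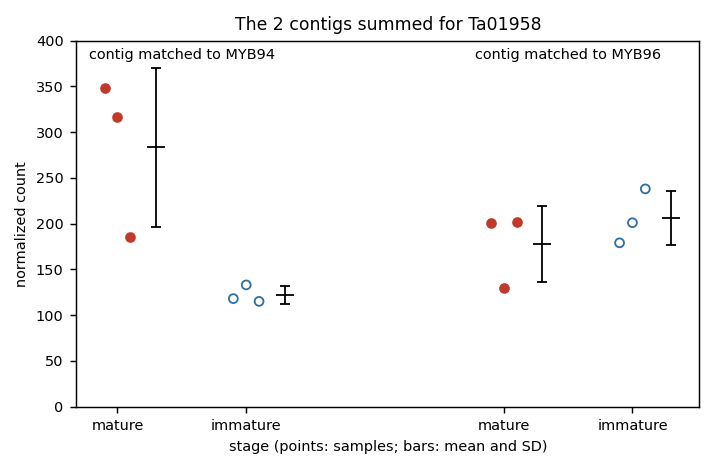
Normalized counts of the 2 contigs summed for the MYB94 locus, with points for samples, filled for mature and open for immature, and bars for the mean and SD of 3 samples. The contig matched to MYB94 has a ratio of means of 2.32 and that matched to MYB96 one of 0.86.

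Of 22 listed wax and cutin genes 18 were found. Of their 18 tested loci, 13 were lower and 3 were higher in mature nectaries, with a median log2 fold change of -1.54. CUS2 (Ta26572), a cutin synthase, had 14, 21 and 9 normalized counts in mature samples and 10648, 9317 and 11022 in immature samples, a log2 fold change of -9.43 (SE 0.26, limma adjusted p = 4.64e-07). ABCG32 (Ta23900), an exporter of cutin precursors, had 331, 319 and 331 in mature samples and 3765, 3604 and 4701 in immature samples. The log2 fold change was -3.61 (SE 0.15, limma adjusted p = 2.4e-06). The 3 higher loci, CER3, CER4 and ABCG12, belong to wax synthesis and export. CER4 overlapped between the stages, with 647 in mature 1 and 707 in immature 3. The count of higher loci in this list ran from 2 to 4 over the alternatives. Of the markers of neighbouring organs, AP3 and SHP1 were lower in mature samples, as most flavonoid, wax and cutin genes were, whereas AG was higher and PI did not pass. SHP1 was the only 1 of 6 listed carpel and ovule genes with a locus. The part of neighbouring organs in these changes was not tested.

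Members with 3 repeats moved in different directions. MYB3R4 (Ta21773), an activator of G2 and M phase genes in Arabidopsis, had 14, 4 and 8 normalized counts in mature samples and 114, 133 and 91 in immature samples. It was low in all mature samples and 13.0-fold lower by the means, a log2 fold change of -3.68 (SE 0.49, limma adjusted p = 0.000332). MYB3R3 (Ta05998) and MYB3R5 (Ta15457) repress the same genes in Arabidopsis. MYB3R3 had 171, 150 and 182 in mature samples and 78, 75 and 88 in immature samples, and MYB3R5 had 122, 121 and 119 in mature samples and 72, 80 and 79 in immature samples. Both were higher in every mature sample, by log2 fold changes of 1.05 (SE 0.17, limma adjusted p = 0.000828) and 0.64 (SE 0.17, limma adjusted p = 0.00991). MYB3R1 (Ta02738), which acts with MYB3R4, has a description without the word "myb". It was found through a list of Arabidopsis factors and named after its values were seen. It had 166, 165 and 191 in mature samples and 237, 250 and 255 in immature samples, a log2 fold change of -0.51 (SE 0.13, limma adjusted p = 0.0107).

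Of 9 tested G2 and M phase loci 8 were lower in mature nectaries, 1 did not pass, and the median log2 fold change was -4.31. CDKB1;1 (Ta07965), a kinase of the G2 to M transition, had 5, 10 and 4 normalized counts in mature samples and 164, 146 and 140 in immature samples, a log2 fold change of -4.45 (SE 0.43, limma adjusted p = 6e-05). TPX2 (Ta23028), a spindle protein, had 5, 4 and 10 in mature samples and 146, 158 and 109 in immature samples. Its log2 fold change was -4.31 (SE 0.45, limma adjusted p = 9.16e-05). MYB3R4 and these genes were low in all 3 mature samples, and a link between them was not tested. The 2 loci matched to MYB4R1, a factor with 4 repeats, are described with the pairs of like loci.

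The largest rise among single-repeat factors was that of Ta05932, matched to the CAPRICE-like MYB3 gene, also named ETC3, a small inhibitor of trichome formation and promoter of root hair fate in Arabidopsis. It had 390, 488 and 571 normalized counts in mature samples and 12, 5 and 8 in immature samples. The stages lay far apart in every sample, and the mean was 58.0-fold higher in mature nectaries, a log2 fold change of 5.75 (SE 0.33, limma adjusted p = 6.17e-06). TRY (Ta23321), a single-repeat factor of the same family whose description lacks the word "myb", had 600, 554 and 672 in mature samples and 91, 138 and 75 in immature samples. It was also higher in every mature sample, by a log2 fold change of 2.62 (SE 0.22, limma adjusted p = 3.49e-05). EGL3 (Ta16519), a bHLH partner of R2R3 factors for which such small factors compete, had 287, 247 and 166 in mature samples and 119, 91 and 108 in immature samples, 2.20-fold higher by the means (limma adjusted p = 0.0031). Of 8 listed bHLH and WD40 partners 3 were found, of which EGL3 and MYC3 were higher and MYC2 did not pass. The call of MYC3 was lost without mature 1, without immature 1 or without immature 2 (adjusted p = 0.0646 to 0.102). The R2R3 factors of the epidermis in Arabidopsis, among them GL1 and WER, had no locus.

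AS1 (Ta02130), an R2R3 factor that represses KNOX genes in young lateral organs and sets leaf polarity, had 64, 76 and 114 normalized counts in mature samples and 640, 517 and 563 in immature samples. It was lower in every mature sample, 6.77-fold by the means, with a log2 fold change of -2.78 (SE 0.22, limma adjusted p = 2.39e-05). MYB25 (Ta13707) had 431, 364 and 366 in mature samples and 114, 121 and 123 in immature samples. Its samples were even within each stage and did not overlap, and the log2 fold change was 1.69 (SE 0.14, limma adjusted p = 2.7e-05).

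Mature samples were uneven for 2 GAMYB-like factors. MYB101 and MYB97 act in the pollen tube in Arabidopsis, and MYB65 acts in the anther tapetum and is a target of miR159. MYB101 (Ta08276) had 413, 33 and 109 normalized counts in mature samples and 2, 3 and 1 in immature samples. MYB97 (Ta20092) had 588, 82 and 161 in mature samples and 3, 11 and 5 in immature samples. In both, mature 1 was highest and mature 2 lowest, and no mature sample reached down to an immature one. The log2 fold changes were 5.33 (SE 0.95, limma adjusted p = 0.00147) for MYB101 and 4.92 (SE 0.74, limma adjusted p = 0.000606) for MYB97. With a pseudocount of 10 they were 3.43 and 3.72, since both loci rested on few reads in immature samples. With voom weights MYB97 did not pass (log2 fold change 5.28, adjusted p = 0.0646).

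Pollen markers took the same course among the mature samples. The ratio of mature 1 to mature 2 was 12.5 for MYB101 and 7.17 for MYB97, and it was 3.79 to 12.1 over the 8 loci of pollen markers, all of which were higher in mature nectaries. VGD1 (Ta19673), which loosens pectin in the growing pollen tube, stood at 13877, 1583 and 4424 normalized counts in mature samples and at 73, 215 and 81 in immature samples. Among the 33 other members with a mature mean of at least 100, the highest mature sample exceeded the lowest by 1.03 to 2.23 times, with a median of 1.42. MYB65 (Ta16604) had 115, 74 and 98 in mature samples and 59, 89 and 58 in immature samples, overlapped between the stages and was below the filter. Of 20 listed pollen and anther genes 7 were found and 13 had no locus, both genes of pollen (ANXUR1, GEX2, HAP2, MGH3, PPME1 and VEX1) and genes of the anther (AMS, MS1, MS2, A7, A9, LAP5 and LAP6). The part of pollen RNA in the values of MYB101 and MYB97 was not tested. Without mature 1, MYB101 fell under the filter. With no filter and without that sample, MYB101 had a log2 fold change of 4.41 (limma adjusted p = 0.00329) and MYB97 one of 4.13. The summed pollen markers were 3595 in mature 2 and 9609 in mature 3, against at most 476 in immature samples. Leaving out mature 1 therefore cannot tell pollen RNA from other sources.

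**Figure D5:**
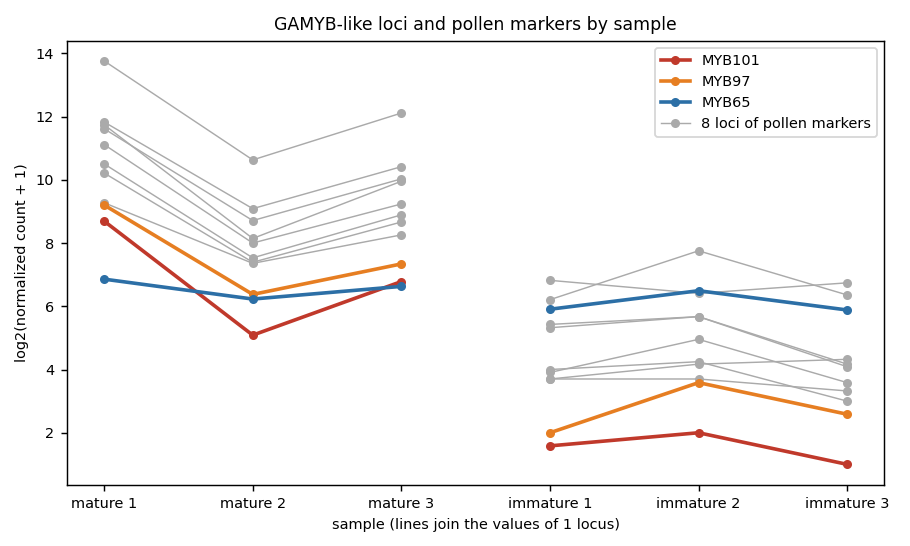
Normalized counts of the 3 GAMYB-like loci and of the 8 loci of pollen markers in each sample, on a log2 scale after adding 1, with lines joining the values of 1 locus within a stage. MYB101, MYB97 and the pollen markers are highest in mature 1 and lowest in mature 2 among mature samples, whereas MYB65 lies at 74 to 115 in mature and 58 to 89 in immature samples.

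MYB44, MYB70, MYB73 and MYB77 form 1 subgroup of R2R3 factors of stress and hormone response, of which 2 were lower in mature nectaries and 2 did not pass. MYB70 (Ta14231) had 75, 27 and 55 normalized counts in mature samples and 148, 136 and 115 in immature samples, a log2 fold change of -1.44 (SE 0.36, limma adjusted p = 0.00804). MYB77 (Ta04053), known for auxin response in roots, had 150, 86 and 130 in mature samples and 200, 245 and 189 in immature samples. Its log2 fold change was -0.82 (SE 0.23, limma adjusted p = 0.0137), and the call was lost without immature 2 (-0.71, adjusted p = 0.0570). Both were lower in every mature sample, lowest in mature 2. MYB44 (Ta02462), known for the abscisic acid response, had 1732, 1128 and 1289 in mature samples and 1676, 1902 and 1791 in immature samples. Mature 1 lay within the immature range, and the log2 fold change of -0.39 (95% confidence interval -0.81 to 0.02, limma adjusted p = 0.0877) did not pass. Without mature 1 it was -0.57 (adjusted p = 0.0115). MYB73 (Ta00146) had 1220, 548 and 565 in mature samples and 602, 740 and 475 in immature samples. Only mature 1 was high, and the log2 fold change of 0.28 (95% confidence interval -0.45 to 1.01, limma adjusted p = 0.462) did not pass.

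Of 5 tested GARP factors and other helix-turn-helix proteins, 1 was higher, 2 were lower and 2 did not pass, a called share near that of all loci. PHL7 (Ta14191), a relative of the phosphate starvation regulator PHR1, had 681, 603 and 679 normalized counts in mature samples and 358, 345 and 369 in immature samples, a log2 fold change of 0.87 (SE 0.12, limma adjusted p = 0.000447). PHL6 (Ta12579), another relative, had 172, 150 and 177 in mature samples and 399, 362 and 298 in immature samples, and its log2 fold change was -1.07 (SE 0.16, limma adjusted p = 0.000516). These 2 relatives moved in opposite directions, each without overlap. AT5G58340 was matched by Ta10409, which had 130, 66 and 81 in mature samples and 229, 263 and 310 in immature samples, a log2 fold change of -1.57 (SE 0.26, limma adjusted p = 0.000956). HHO2 (Ta06617) and the locus matched to AT5G41020 (Ta18280) did not pass, and PHL4 (Ta16470), with 84, 107 and 90 in mature samples and 86, 95 and 92 in immature samples, was below the filter.

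Of 6 chromatin and adaptor proteins with a Myb-type domain, 3 were lower in mature nectaries and 3 did not pass. The 2 loci matched to SWC4, a subunit of the SWR1 complex that places the histone variant H2A.Z, were both lower. Ta05299 had 311, 288 and 191 normalized counts in mature samples and 620, 527 and 492 in immature samples, a log2 fold change of -1.07 (SE 0.20, limma adjusted p = 0.00206). This locus was the sum of 3 contigs, and the one matched to SWC4, 42.4% of the sum, had 135, 109 and 86 in mature samples and 245, 220 and 236 in immature samples. The other contigs, matched to AT2G37520 and AT2G37500, were also lower by the means, with ratios of 0.44 and 0.56. Ta19658 had 423, 260 and 384 in mature samples and 512, 533 and 544 in immature samples, a log2 fold change of -0.60 (SE 0.19, limma adjusted p = 0.0229), whose call was lost without any 1 of the immature samples. ZRF1b (Ta00554), a reader of ubiquitinated histone H2A, had 394, 307 and 393 in mature samples and 541, 528 and 506 in immature samples, a log2 fold change of -0.53 (SE 0.14, limma adjusted p = 0.0115). Its paralog ZRF1a (Ta16605) had 732, 634 and 782 in mature samples and 646, 653 and 753 in immature samples and overlapped between the stages. Of this sum 33.4% came from a contig matched to another gene, AT5G45420, which had 254, 237 and 297 in mature samples and 198, 200 and 217 in immature samples, without overlap. The contig matched to ZRF1a had a ratio of means of 0.95, and the difference between the contigs had an exact permutation p of 0.1, or 0.2 after adjustment. ALY1 and ALY2, which belong to a family of cell cycle regulators, did not pass. Of the trihelix factors, the locus matched to AT2G44730 (Ta00463) had 446, 237 and 304 in mature samples and 510, 461 and 516 in immature samples. Its log2 fold change of -0.64 (SE 0.22, limma adjusted p = 0.0340) was lost without any 1 of the samples other than mature 1, and the locus matched to AT3G24490 (Ta25702) did not pass.

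Of the Target of Myb proteins, Ta04472 had 1901, 1377 and 1710 normalized counts in mature samples and 564, 539 and 751 in immature samples. It was higher in every mature sample, with a log2 fold change of 1.43 (SE 0.18, limma adjusted p = 0.000273). The locus Ta14040, matched to the same Arabidopsis gene, had 255, 142 and 232 in mature samples and 131, 102 and 176 in immature samples, overlapped between the stages and did not pass (0.61, adjusted p = 0.0843). Ta16976 had 1127, 706 and 1055 in mature samples and 825, 742 and 929 in immature samples, with a log2 fold change of 0.19 (adjusted p = 0.433).

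Each of 4 Arabidopsis genes had 2 member loci, AT5G16880 of the Target of Myb family, MYB4R1, KUA1 and SWC4. The 2 loci matched to AT5G16880 differed in log2 fold change by -0.82, Ta14040 minus Ta04472. Their log2 ratio ran from -3.27 to -2.88 in mature samples and from -2.39 to -2.09 in immature samples, without overlap. For MYB4R1, Ta20148 had 283, 220 and 280 normalized counts in mature samples and 170, 192 and 194 in immature samples, and Ta17247 had 224, 220 and 290 in mature samples and 240, 209 and 261 in immature samples. The first was higher in mature nectaries by a log2 fold change of 0.48 (limma adjusted p = 0.0234), lost without mature 1, mature 3, immature 1 or immature 2, and the second did not pass. The difference of Ta17247 minus Ta20148 was -0.44. KUA1, a factor with 1 repeat known for cell expansion and leaf ageing, had 837, 513 and 629 at Ta13563 in mature samples and 566, 479 and 525 in immature samples. At Ta14138 it had 461, 298 and 350 in mature samples and 333, 331 and 372 in immature samples. Neither passed, and Ta14138 minus Ta13563 was -0.23. These 3 differences each had an exact two-sided permutation p of 0.1, the smallest possible, and that of SWC4, -0.47 for Ta05299 minus Ta19658, had 0.3. After adjustment over the 4 pairs the values were 0.133 and 0.3, and this test could not have called any pair different with 3 samples a stage.

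The Arabidopsis factors that had no locus were counted against a list of 97 MYB genes in 11 role groups. A gene counted as found where the most abundant contig of a locus matched it. MYB96, matched by the less abundant contig of Ta01958, therefore counted as absent. Of the 97 genes, 21 had a member locus, and 24 had any locus. None of the 6 glucosinolate activators was found, against 1 of 9 flavonoid activators and 3 of 12 cuticle and suberin factors. Of the GAMYB, anther and pollen factors 3 of 11 were found, and of the phenylpropanoid repressors 4 of 7. The table holds contigs with a value of at least 101 in some sample, so factors below that level could not appear in it. Of 14 listed glucosinolate enzymes 6 were found nonetheless. Of 7 tested loci 5 were lower in mature nectaries, 2 did not pass, and their log2 fold changes had a median of -1.90. SOT18 (Ta05683), a sulfotransferase of the last step of the core pathway, had 177, 117 and 144 normalized counts in mature samples and 516, 638 and 697 in immature samples, a log2 fold change of -2.08 (SE 0.19, limma adjusted p = 4.76e-05). A further locus matched to SOT18, Ta17368, had 151, 47 and 143 in mature samples and 119, 148 and 293 in immature samples. It did not pass (limma adjusted p = 0.197). CYP83A1 (Ta18263), an aldoxime oxidase, had 25, 14 and 43 in mature samples and 438, 409 and 775 in immature samples, and fell by 4.33 on the log2 scale (SE 0.41, limma adjusted p = 5.31e-05). FLP, an R2R3 factor that ends the divisions of guard mother cells and whose description lacks the word "myb", had 921, 1322 and 1253 normalized counts at Ta06493 in mature samples and 1725, 1826 and 1535 in immature samples. Its log2 fold change was -0.55 (SE 0.17, limma adjusted p = 0.0223), and the call was lost without immature 1, without immature 2 and with samples rescaled by median ratio or trimmed mean (adjusted p = 0.0716 to 0.0963). A further FLP locus, Ta19173, was below the filter, with 8, 18 and 14 in mature samples and 46, 120 and 40 in immature samples, 5.15-fold lower by the means and without overlap. With no filter its adjusted p was 0.00835 to 0.0140, with and without mature 1. Of 3 guard cell loci tested, 2 were lower in mature nectaries, and their summed level ran from 690 to 810 in mature samples and from 1092 to 1236 in immature samples.

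Other MYB-related genes, mostly of the circadian clock, were listed by locus code, and 16 of these 21 genes were found. Of 16 tested loci, the 2 KUA1 loci included, 8 were higher in mature nectaries and 8 did not pass. Their median log2 fold change was 0.60, and the count of higher loci ran from 6 to 11 over the alternatives. CCA1 (Ta10548), a morning factor of the clock, had 1122, 1334 and 1250 normalized counts in mature samples and 565, 604 and 653 in immature samples, a log2 fold change of 1.02 (SE 0.13, limma adjusted p = 0.000295). DIV1 (Ta13383), matched to a relative of the snapdragon gene DIVARICATA, had 954, 271 and 382 in mature samples and 72, 41 and 103 in immature samples. Mature 1 was highest, and the log2 fold change was 2.76 (SE 0.48, limma adjusted p = 0.00133). All samples of both stages were taken in the same span of hours after dawn, and the sources used here give no hour for single samples.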

How the data were processed

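Nectary RNA of 6 samples, 3 mature and 3 immature, was sequenced as 50 bp reads. The authors assembled the reads with Trinity, added the contigs to an existing transcriptome of pennycress, counted reads per contig with blastn (E-value cutoff 1e-05), upper-quartile normalized the counts and rounded them. The deposited values are therefore treated as a score and not as raw counts, and no count model was applied. The deposited fold changes and p-values of the authors were not used. Contigs were summed by predicted pennycress protein, 617 contigs with none being left out, and each locus took the annotation of its most abundant contig. Loci averaging 100 or more in at least one stage were tested with limma 3.58.1 in R 4.3.3 (mean-variance trend) on log2(sum + 1), over all 11780 such loci and without a block, with Benjamini-Hochberg adjustment at 0.05. A locus averaging under 100 in 1 stage was tested only where the other stage reached 100, which fixed the direction of its means. Fold changes of low loci are understated on this scale. The script was tested on simulated data. Tables and figures were made with scipy 1.17.1, numpy 2.4.6, pandas 2.3.3 and matplotlib 3.10.9 in Python 3.11.15. The reads behind each value were estimated from gaps between low values.

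The members and gene lists were chosen with earlier results of these data known. All members could be named. Full values were given for the 8 largest increases and decreases, the called loci of each role with the smallest adjusted p, the highest means of each stage and loci whose call depends on the processing, and other values were added after they were seen. Of each pathway list the 2 called loci with the smallest adjusted p were named. UGT78D2, F5H, PAL1, the PAL2 locus Ta13994, the SOT18 locus Ta17368, CER3, CER4, ABCG12, KNOLLE, MYC2, AP3, SHP1, MYB3R1, TRY and FLP were chosen after their values were seen. The replicate numbers were not treated as pairs.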

Additional observations from a re-analysis of the deposited data

How the results depend on the processing

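Over 18 alternatives set out in advance and 1 added after the data were seen (no filter and without mature 1), 23 of the 29 called loci kept their call and direction wherever they were tested, none of the 29 changed direction, and 6 lost the call somewhere, namely MYB94, MYB77, MYB97, the locus matched to AT2G44730, SWC4 at Ta19658 and MYB4R1 at Ta20148. With a mean of at least 500 required, fewer loci were tested and 6 were higher, 4 were lower, 5 were over 2-fold higher and 2 were over 2-fold lower. Leaving out 1 sample gave 12 to 19 higher, 10 to 14 lower, 10 to 12 over 2-fold higher and 7 to 9 over 2-fold lower loci. A replicate block gave 17 higher and 13 lower loci, the added one being Ta14040. Same-numbered samples had correlations of deviations of -0.07, 0.01 and 0.20, and samples of different numbers had -0.18 to 0.19. With 3 samples a stage, these values cannot tell whether the numbers mark pairs.

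In 6 loci that had not passed the sign changed, and the cause was not tested. HHO2 had 0.0340 by median ratio, 0.0490 by trimmed mean and 0.0892 with voom weights, and -0.341 to 0.201 without single samples. MYB73 had -0.0987 with no filter and without mature 1, and -0.0987 to 0.478 without single samples. KUA1 at Ta14138 had -0.0761 with totals rescaled, -0.0943 with no filter and without mature 1, and -0.0943 to 0.220 without single samples. ZRF1a had -0.0887 with totals rescaled, -0.0802 with the most abundant contig and -0.00226 to 0.149 without single samples. MYB4R1 at Ta17247 had -0.110 with totals rescaled and -0.0860 to 0.115 without single samples, and ALY1 had -0.0259 to 0.384 without single samples. Rescaling to totals without ribosomal RNA and organelles moved the median of all loci to -0.24, against -0.09. The widest 95% confidence intervals among the members were those of MYB101, MYB111 and MYB97.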
